A study of Sus scrofa with 6 samples.

Results

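miR-7 and miR-9, microRNAs (miRNAs, small RNAs that silence messenger RNAs) best known from the nervous system, were followed in pig oocytes. They were picked by name from the mature miRNAs listed for every library, which gave 4 names beside 322 others: ssc-miR-7, ssc-miR-9, ssc-miR-9-1 and ssc-miR-9-2. The prefix, which marks the pig, is left out below. Large-follicle oocytes (LO) came from follicles of 3 to 6 mm, aspirated with a 20-gauge needle on a 10 mL syringe. Small-follicle oocytes (SO) came from follicles under 2 mm, aspirated with a 23-gauge needle on a 5 mL syringe. All oocytes were denuded, that is, freed of cumulus cells, and came from ovaries of prepubertal gilts collected at an abattoir, with no other treatment given in the labels. Each group had 3 libraries, called biological replicates by the series, and the labels do not state the number of animals or oocytes pooled in a library. Follicle size, needle and syringe differed together and cannot be told apart. The series title relates the miRNA profile to how well an oocyte can develop, and the comparison is LO against SO.

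A miRNA finds its messenger RNAs mainly through its seed, bases 2 to 8 counted from the 5′ end. miR-9 is one of the most abundant miRNAs of the vertebrate brain, where it acts on neural progenitors and neuron differentiation, and several genomic copies make the same mature RNA. miR-7 is ancient, shared by insects and vertebrates, and is abundant in neurons, the pituitary and the endocrine pancreas. In the ovary of Drosophila, miR-7 takes part in germline stem cell division.

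The deposited sequences are shown because 3 of the 4 names describe nearly the same RNA, which decides what can be compared. They are written as DNA, 5′ to 3′, with the seed in capitals.
miR-7: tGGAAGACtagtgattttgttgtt
miR-9: tCTTTGGTtatctagctgtatg
miR-9-1: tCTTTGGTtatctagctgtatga
miR-9-2: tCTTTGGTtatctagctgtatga
The sequences of miR-9-1 and miR-9-2 are identical over 23 bases, and the 22 bases of miR-9 are the same RNA without the last base. All 3 miR-9 names share the seed CTTTGGT, and no other listed miRNA has it. No other listed miRNA has the miR-7 seed GGAAGAC. Over the first 20 bases the nearest other name differed from miR-7 at 6 positions (miR-338) and from the miR-9 names at 9 positions (miR-450b-5p). In the RefSeq table of the Sscrofa11.1 assembly, MIR7-2, whose older name is ssc-mir-7, lies within the span of HNRNPK, a gene for an RNA-binding protein, and MIR7-1 lies between AEN and DET1. MIR9-1 lies within a long non-coding RNA, LOC106510131, while MIR9-2 has MEF2C and MIR9-3 has POLG as a coding neighbour. The mature sequences do not say which copy made a read. Reads of miR-9-1 and miR-9-2 were therefore summed, and this sum is called miR-9 below unless a single name is given.

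Levels are given in reads per 1000000 (RPM) of the total the authors scaled each library to. Listed miRNA reads numbered 7755 to 42541 in LO and 44964 to 55230 in SO, so the LO libraries were shallower. One read was worth 0.702 to 2.17 RPM in LO and 0.457 to 0.522 RPM in SO. The LO libraries also differed in the share of the total that was listed miRNA, which was 1.68% in LO replicate 2 and 3.03% and 2.99% in LO replicates 1 and 3, against 2.33% to 2.88% in SO. Intervals per library are exact 95% intervals that cover counting error only.

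miR-7 was among the more abundant miRNAs of every library and lower on average in LO, with overlapping groups. It had 160, 150 and 348 RPM in LO replicates 1 to 3, against 371, 239 and 294 RPM in SO replicates 1 to 3. LO replicates 1 and 2 lay below every SO library, while LO replicate 3 lay above SO replicates 2 and 3. These levels rest on 92, 69 and 495 reads in LO and on 710, 459 and 643 reads in SO. Counting error gave intervals of 128.8 to 196, 116 to 189 and 318 to 380 RPM in LO replicates 1 to 3. In RPM, LO replicate 3 thus stood above the other LO libraries by more than counting error. As shares of listed miRNA reads, the intervals of LO replicates 2 and 3 overlapped (0.693% to 1.12% and 1.06% to 1.27%). For miR-7 the LO libraries averaged 218.95 ± 112 RPM and the SO libraries 301 ± 66.1 RPM (mean ± SD, n = 3 per group). The difference was smaller than the SD within LO, and the exact two-sided permutation test on RPM gave p = 0.3, where 0.1 is the smallest p that 3 against 3 allows.

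miR-9 was about an order of magnitude lower and leaned the same way. It had 19.1, 15.2 and 27.4 RPM in LO replicates 1 to 3, against 33.9, 22.4 and 28.8 RPM in SO replicates 1 to 3. LO replicates 1 and 2 were again below every SO library, and LO replicate 3 lay between SO replicates 2 and 3. Only 11, 7 and 39 reads in LO stood behind these values, against 65, 43 and 63 reads in SO, and the interval of LO replicate 2 ran from 6.10 to 31.3 RPM. The LO libraries averaged 20.6 ± 6.24 RPM and the SO libraries 28.4 ± 5.78 RPM (mean ± SD, n = 3 per group), and the exact permutation p, two-sided, was 0.2. In a bulk library, fewer oocytes that hold a miRNA and less of it per oocyte cannot be told apart.

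**Figure D1:**
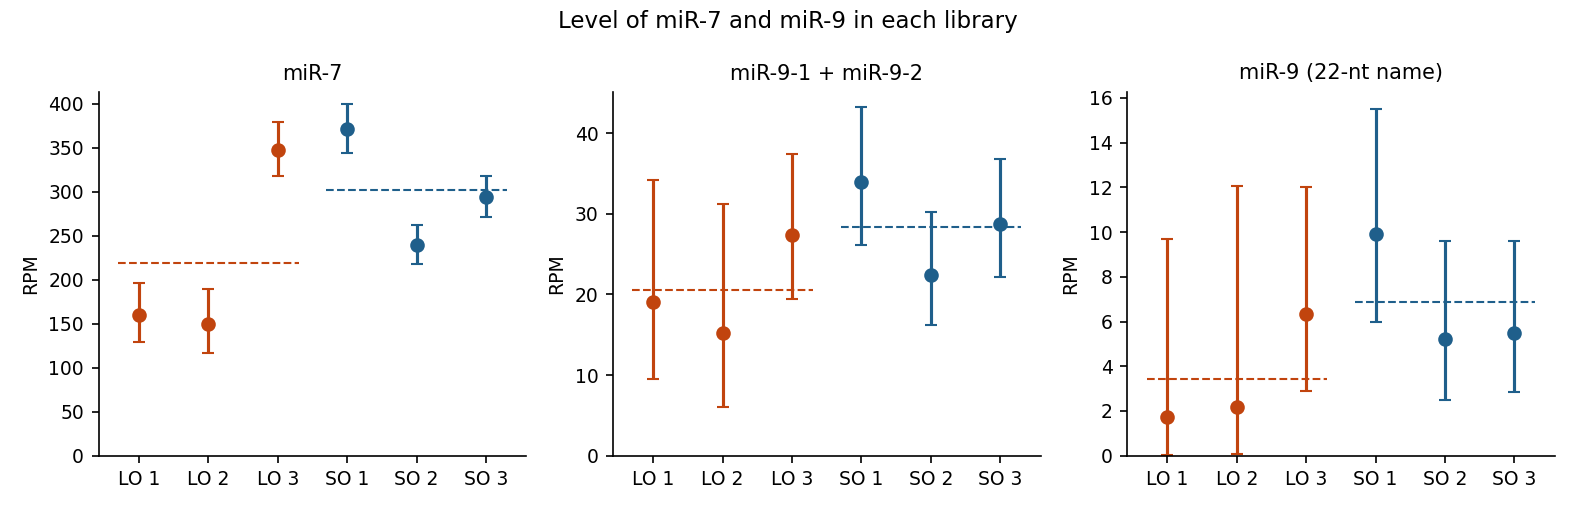
Level in RPM (y axis, each panel with its own scale from 0) of miR-7, of miR-9-1 and miR-9-2 summed, and of the 22-base miR-9 name in the 3 LO and 3 SO libraries (x axis). Points are libraries, bars exact 95% counting intervals and dashed lines group means; LO replicates 1 and 2 are the lowest points in all 3 panels.

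Across all 103 miRNAs with enough reads to test, limma on log2(RPM + 1) called none at a false discovery rate (FDR) of 0.05 (0%). Before adjustment 4 reached a limma p under 0.05, each of them higher in LO: miR-184, miR-210, miR-152 and let-7c. miR-7 had a log2 fold change of -0.55 (SE 0.47, 95% interval -1.46 to 0.37; limma FDR 0.777). miR-9 had a log2 fold change of -0.47 (SE 0.61, 95% interval -1.67 to 0.74; limma FDR 0.777). These intervals include no change and also include a halving in LO, so neither equal levels nor a 2-fold difference was shown. The SE and interval were set by limma's trend with abundance and not by the spread of the miRNA itself. That spread, as residual SD on the log2 scale, was 0.53 for miR-7 and 0.36 for miR-9.

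The balance of the whole profile matters for these signs. With the values as deposited, the 103 tested miRNAs had a median log2 fold change of 0.31 and 31 of them (30.1%) were negative. miR-7 was the 8th lowest and miR-9 the 11th lowest of the 103, at 0.86 and 0.78 below that median on the log2 scale. With the TMM scaling of edgeR, which moved the median to 0.05, limma gave log2 fold changes of -0.81 for miR-7 and -0.73 for miR-9, with FDRs of 0.279 and 0.423. Their unadjusted limma p were 0.019 and 0.081, where 13 of the 103 were under 0.05. On reads recovered from the RPM steps, edgeR's quasi-likelihood test gave -0.69 for miR-7 and -0.74 for miR-9, with FDRs of 0.172 and 0.353. Unadjusted, this edgeR test gave p of 0.012 and 0.084, with 15 of the 103 under 0.05. It called 2 other miRNAs, miR-184 and miR-210, both higher in LO, and DESeq2 called 0. Without LO replicate 2, the shallowest library, limma on the deposited scaling gave log2 fold changes of -0.33 for miR-7 and -0.28 for miR-9, and without LO replicate 3 it gave -0.94 and -0.69.

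A share of the listed miRNA reads sets each library against its own miRNAs. miR-7 took 0.527%, 0.890% and 1.16% of them in LO replicates 1 to 3, against 1.29%, 1.02% and 1.26% in SO replicates 1 to 3. The interval of LO replicate 1, 0.425% to 0.646%, lay below the intervals of all 5 other libraries, and LO replicate 3 lay within the SO range. The LO share averaged 0.860% ± 0.319 and the SO share 1.19% ± 0.147 (mean ± SD, n = 3 per group). The difference was -0.330 percentage points, and the exact permutation p, two-sided, was 0.2. Adjusted over the 5 exact tests of shares and ratios made here, this p was 0.333.

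On this scale the miR-9 values of the groups did not overlap. miR-9 took 0.0630%, 0.0903% and 0.0917% of listed miRNA reads in LO replicates 1 to 3, against 0.118%, 0.0956% and 0.124% in SO replicates 1 to 3. LO replicate 3 and SO replicate 2 were nearly equal, and their counting intervals, 0.0652% to 0.125% in LO replicate 3 and 0.0692% to 0.129% in SO replicate 2, covered almost the same range. The LO share averaged 0.0816% ± 0.0162 and the SO share 0.112% ± 0.0148 (mean ± SD, n = 3 per group). The exact permutation p, two-sided, was 0.1, the smallest possible, and 0.333 once adjusted. Of the 103 tested miRNAs, 7 (6.80%) had all LO shares below all SO shares and 9 (8.74%) had them all above, so such an order was not rare in these libraries. In RPM, 1 of the 103 (0.971%), miR-489, had all LO libraries below all SO libraries and 2 (1.94%), miR-184 and miR-374a-3p, had them all above, and miR-7 and miR-9 were in neither set.

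**Figure D2:**
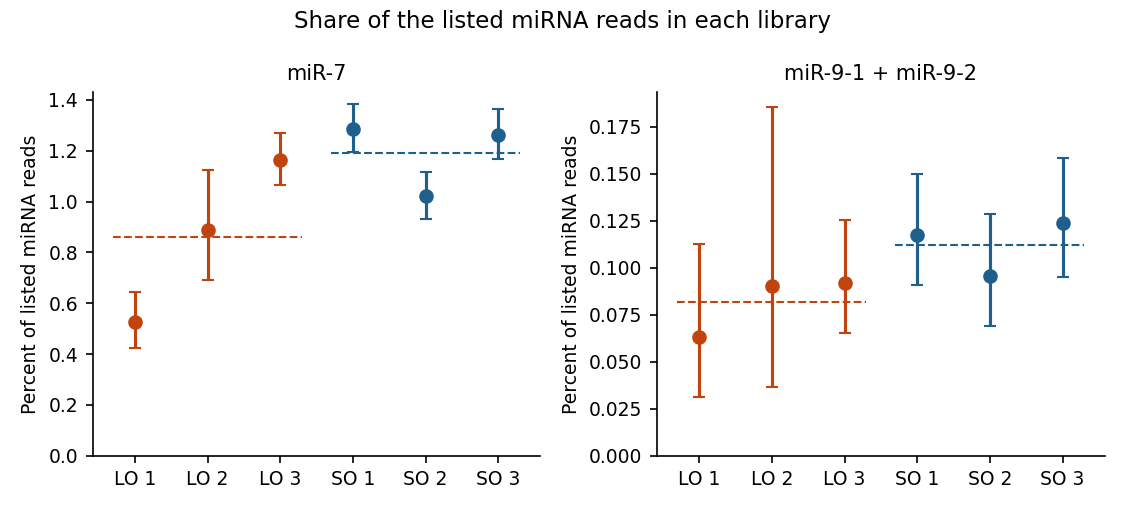
Percent of listed miRNA reads (y axis, from 0) held by miR-7 and by miR-9-1 and miR-9-2 summed in each LO and SO library (x axis). Points are libraries, bars exact 95% binomial intervals and dashed lines group means; miR-7 in LO replicate 1 stands at 0.527%, below all other libraries, and the miR-9 intervals of both groups overlap.

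In rank, miR-7 was number 29, 14 and 13 in LO replicates 1 to 3, against 11, 14 and 12 in SO replicates 1 to 3, among 325 entries with miR-9-1 and miR-9-2 counted once. By group mean it was number 17 in LO, between miR-125a at 248 ± 190 RPM and miR-30d at 213 ± 61.7 RPM. In SO it was number 12, between miR-103 at 348 ± 16.4 RPM and let-7c at 276 ± 57.1 RPM. In both groups the gap to these neighbours was smaller than the SD of miR-7 itself. miR-9 was number 82, 60 and 65 in LO and number 54, 61 and 47 in SO. Its neighbours by mean were miR-190a (21.5 ± 13.2 RPM) and miR-17-5p (19.7 ± 10.1 RPM) in LO, and miR-190a (29.1 ± 15.3 RPM) and miR-138 (27.3 ± 5.61 RPM) in SO, none farther away than the SD of miR-9.

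The ratio of miR-7 to miR-9 reads within a library does not depend on its scaling. It was 8.36, 9.86 and 12.7 in LO replicates 1 to 3, against 10.9, 10.7 and 10.21 in SO replicates 1 to 3. The LO values lay on both sides of the SO values. The interval of LO replicate 2, 4.54 to 25.4, covered all 6 ratios, as did those of LO replicate 1, SO replicate 2 and SO replicate 3. On the log2 scale with 1 RPM added to each miRNA, the LO ratio averaged 3.28 ± 0.31 and the SO ratio 3.36 ± 0.05 (mean ± SD, n = 3 per group). The difference was -0.08 (exact permutation p = 0.7, two-sided). Without LO replicate 1 the difference turned to 0.06.

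How the miR-9 reads fell on their names was looked at separately. miR-9-1 had 8.68, 4.33 and 11.9 RPM in LO replicates 1 to 3, against 16.2, 12.5 and 12.3 RPM in SO replicates 1 to 3. Every LO library was below every SO library for this name, an order shared only with miR-489 among the 104 miRNAs tested with the names kept apart (2 of 104, 1.92%). miR-9-2, whose sequence is the same, had 10.4, 10.8 and 15.4 RPM in LO against 17.8, 9.90 and 16.5 RPM in SO, with overlapping groups. The limma log2 fold changes were -0.74 (SE 0.70, FDR 0.780) for miR-9-1 and -0.23 (SE 0.67, FDR 0.898) for miR-9-2.

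The order seen for miR-9-1 rests on 5, 2 and 17 reads in LO, against 31, 24 and 27 reads in SO. Of the reads of these 2 names, miR-9-1 held 45.5%, 28.6% and 43.6% in LO replicates 1 to 3, against 47.7%, 55.8% and 42.9% in SO replicates 1 to 3. An even split of 50% lay within the exact binomial interval of each of the 6 libraries, and over all of them miR-9-1 held 106 of 228 reads, or 46.5% (39.9% to 53.2%). The LO share averaged 39.2% ± 9.26 and the SO share 48.8% ± 6.55 (mean ± SD, n = 3 per group). Their difference gave an exact permutation p of 0.3, two-sided, and 0.375 once adjusted. The labels do not state how reads that match both names were assigned.

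How reads that fit all 3 miR-9 names were assigned is not stated either, so the reads under a name need not count a separate RNA. The shorter name, miR-9, had the fewest reads of the members. It had 1.74, 2.17 and 6.32 RPM in LO, from 1, 1 and 9 reads, against 9.92, 5.21 and 5.48 RPM in SO, from 19, 10 and 12 reads. It was too low to pass the filter for the fit, and the exact two-sided permutation test of the difference in mean RPM, -3.46, gave p = 0.3. Of the reads under all 3 miR-9 names it held 8.33%, 12.5% and 18.8% in LO replicates 1 to 3, against 22.6%, 18.9% and 16.0% in SO replicates 1 to 3 (exact two-sided permutation p = 0.2, adjusted p = 0.333). Over all 6 libraries the share was 18.6% (14.2% to 23.6%), 52 of 280 reads. Adding this name to the sum gave an LO average of 24.0 ± 8.62 RPM and an SO average of 35.3 ± 8.16 RPM (mean ± SD, n = 3 per group), with a limma log2 fold change of -0.57 (SE 0.60, FDR 0.780).

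**Figure D3:**
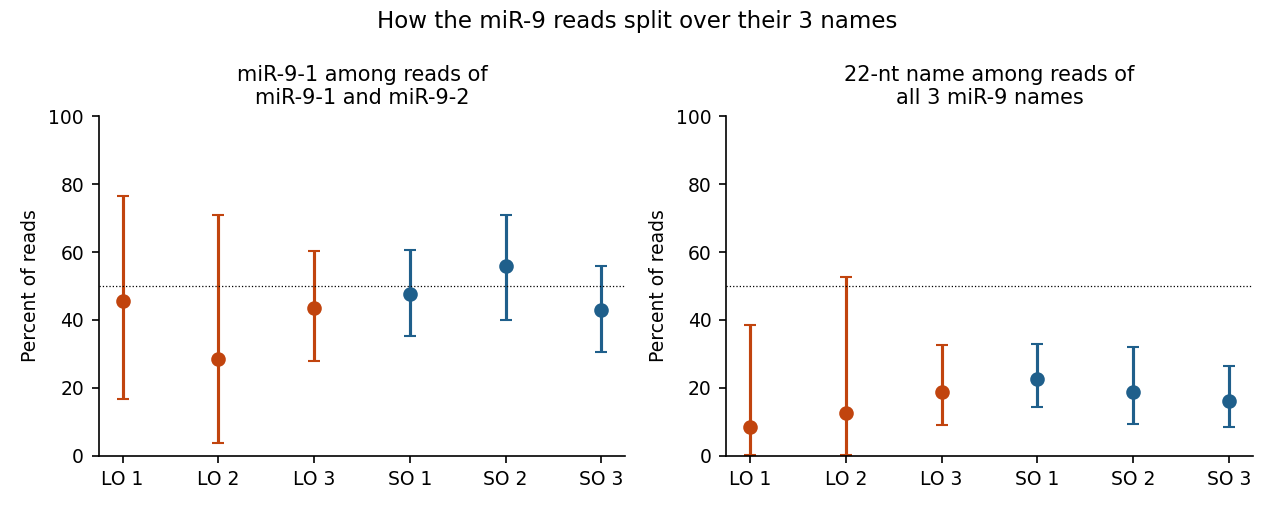
Percent of reads (y axis) under miR-9-1 among those of miR-9-1 and miR-9-2 (left), and under the 22-base miR-9 name among those of all 3 names (right), in each LO and SO library (x axis), with exact 95% binomial intervals; the dotted line is 50%. In the left panel the interval of each library includes 50%.

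Other miRNAs known from neurons or glia were set beside them. The list, chosen with earlier results of these data known, matched 21 names in the files, of which 5 had 0 reads in every library and 6 had enough reads to test. miR-124a, of the family that most clearly marks neurons, had 1 read in LO and 1 in SO over all libraries, and miR-153, miR-218-3p, miR-219, miR-323 and miR-326 had none. In the main fit, 3 of the 6 tested were lower and 3 higher in LO. None was called there by limma at FDR 0.05 (background 0%) or had an unadjusted limma p under 0.05. Their median log2 fold change was -0.22 beside 0.31 for all tested miRNAs. With TMM, miR-128 and miR-338, both lower in LO, had unadjusted limma p of 0.022 and 0.048 (FDRs 0.280 and 0.379). The other tested neural names stayed above 0.05 with TMM.

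miR-128, an abundant brain miRNA, had an LO average of 886 ± 252 RPM against an SO average of 1208 ± 242 RPM (mean ± SD, n = 3 per group), a log2 fold change of -0.46 and a limma FDR of 0.777. miR-338, known from oligodendrocytes, had an LO average of 51.1 ± 23.2 RPM against an SO average of 70.6 ± 22.7 RPM, a log2 fold change of -0.50. miR-218b, of a family known from motor neurons, had an LO average of 4.22 ± 2.51 RPM against an SO average of 6.85 ± 0.947 RPM, a log2 fold change of -0.69. It rests on 2, 1 and 10 reads in LO replicates 1 to 3, against 15, 13 and 13 reads in SO replicates 1 to 3. The untested miR-218 and miR-218-5p leaned the other way, with LO averages 1.51 and 1.17 times those of SO and overlapping groups. They rest on 6 and 18 reads in LO, against 11 and 25 reads in SO. miR-125b, miR-138 and miR-181a had log2 fold changes of 0.03, 0.26 and 0.60. The first turned to -0.24 with TMM. For miR-181a the direction rested on LO replicate 1, where it had 53.8 RPM: without that library its log2 fold change was -0.19. Without LO replicate 2, where it had 4.33 RPM, it was 1.496 with a limma FDR of 0.0458, a call. In that setting 22 of 110 tested miRNAs were called, all higher in LO, and the median log2 fold change was 0.62. With TMM and without LO replicate 2, miR-181a was at 0.91 with a limma FDR of 0.168.

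**Figure D4:**
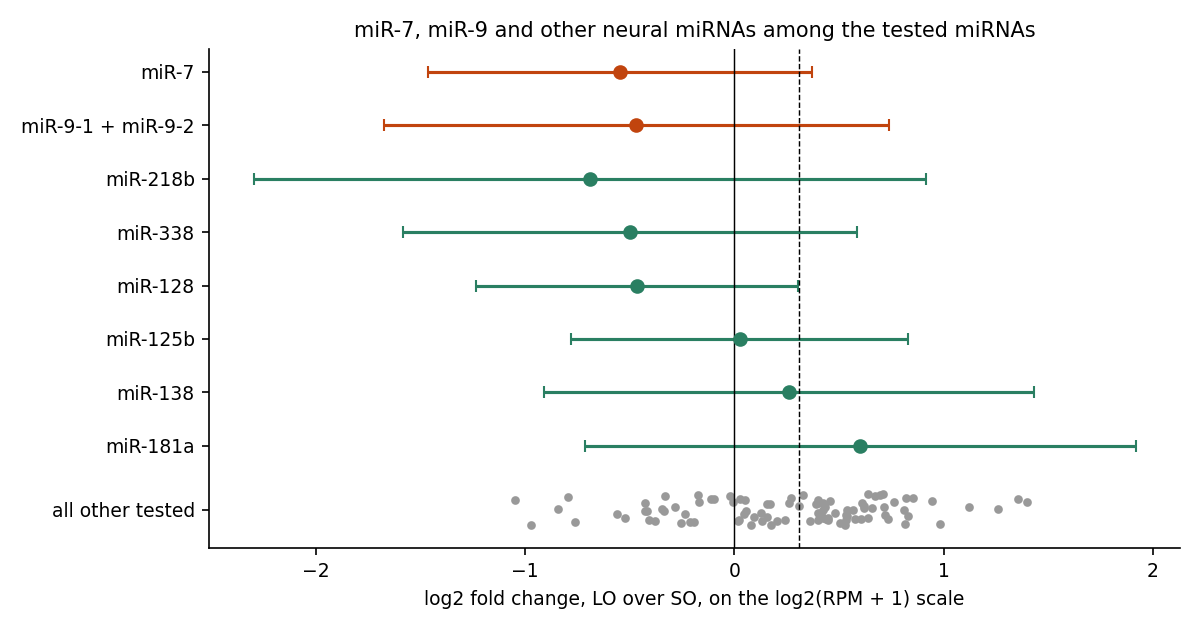
log2 fold change of LO over SO on the log2(RPM + 1) scale (x axis) for miR-7 and summed miR-9 (orange), the 6 other tested neural miRNAs (green) and the rest of the 103 tested miRNAs (grey, spread vertically for legibility). Bars are limma 95% intervals, the solid line is 0 and the dashed line the median of all tested, 0.31; each interval drawn includes 0.

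The course of each miRNA over the 6 libraries was compared by the root mean square difference of its log2(RPM + 1) values, each taken relative to its own mean. A scaling factor shared by a library all but cancels in this measure, and it is a description over 6 libraries of unequal depth. Relative to its mean, miR-7 stood at -0.61, -0.71 and 0.50 in LO replicates 1 to 3, and at 0.60, -0.03 and 0.26 in SO replicates 1 to 3. miR-9 stood at -0.29, -0.61 and 0.20 in LO, and at 0.50, -0.08 and 0.27 in SO. On this RPM scale both were lowest in LO replicate 2 and highest in SO replicate 1. Unlike the difference between 2 miRNAs, these values keep the scaling of each library. As shares of listed miRNA reads, both were lowest in LO replicate 1, while miR-7 was highest in SO replicate 1 and miR-9 in SO replicate 3.

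Of 102 other tested miRNAs the closest to miR-7 were miR-503 (0.15), miR-183 (0.18), miR-9 (0.19) and miR-146a-5p (0.19), where the median over all was 0.76. miR-503 is encoded with miR-424, and miR-183 is known from sensory cells. The closest to miR-9 were miR-30a-5p (0.08), miR-146a-5p (0.11), miR-183 (0.13) and miR-205 (0.16), with a median of 0.67 over all, and miR-7 came 8th. miR-146a-5p, known from inflammatory signalling, and miR-183 were thus near both. Counting error was not taken into these differences. miR-9 rests on 11 and 7 reads in LO replicates 1 and 2, and miR-503 averaged only 9.40 RPM in LO. The order among the closest miRNAs is therefore uncertain.

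**Figure D5:**
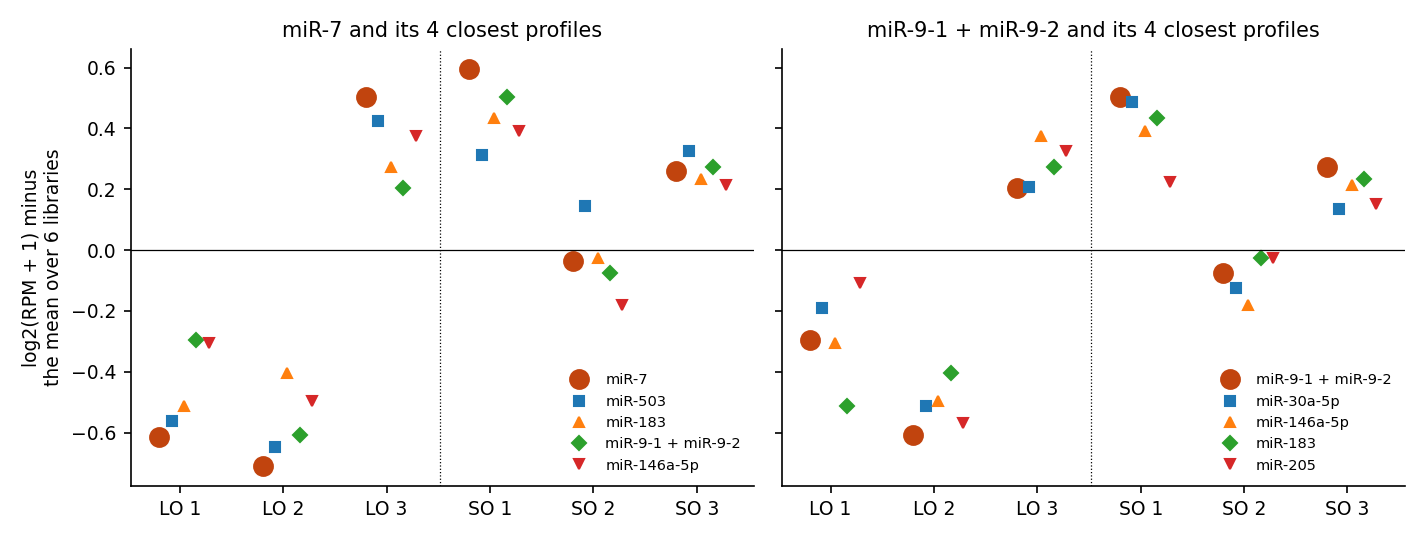
log2(RPM + 1) minus the mean over the 6 libraries (y axis) in each LO and SO library (x axis) for miR-7 (left) and summed miR-9 (right), as large orange circles, with the 4 miRNAs of closest course as small symbols. In both panels LO replicates 1 and 2 lie below 0, while LO replicate 3, SO replicate 1 and SO replicate 3 lie above it.

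Markers of other cells were measured in the same libraries. The 8 granulosa and cumulus names, all with at least 1 read, summed to 325 to 1158 RPM in LO and 392 to 736 RPM in SO. In RPM, the highest sum of these 8 names was in LO replicate 1, the library where miR-7 and miR-9 had their lowest share of listed miRNA reads. Their lowest sum was in LO replicate 2, the library with the lowest RPM of miR-7 and miR-9. That library also had the lowest percent of listed miRNA in its total, 1.68%, which lowers RPM values. The sums were not compared as shares of listed miRNA reads. The 9 stroma and theca names summed to 73.7 to 131.98 RPM in LO and 45.2 to 101 RPM in SO, with miR-214 at 0 throughout. The 2 endothelial names summed to 9.13 to 17.4 RPM in LO and 3.20 to 14.1 RPM in SO. The 6 blood names summed to 7.02 to 10.8 RPM in LO and 3.13 to 60.0 RPM in SO, the highest in SO replicate 1, where miR-7 and miR-9 also had their highest RPM. The 5 muscle names summed to 9.83 to 17.4 RPM in LO and 3.66 to 5.74 RPM in SO, with miR-133a-5p and miR-133b at 0 throughout. Theirs were the only sums here whose groups did not overlap. Liver miR-122 had 4.33 to 19.7 RPM in LO and 2.08 to 21.02 RPM in SO. The neuroendocrine miR-375 was not among the listed names. The part of these cells and of depth in the values of miR-7 and miR-9 was not tested.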

How the data were processed

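Small RNA of denuded oocytes was isolated with the mirVana kit and made into libraries with the QIAseq miRNA kit, per the labels' protocols. Per the submitters' processing notes the tools were edgeR, Bowtie2 2.2.2, cutadapt and bcl2fastq and the genome build was Sscrofa10.2, without saying what each was used for. The deposited column is headed TPM, but every value is a whole multiple of 1 step per library whatever the sequence length, so the authors' values were read as RPM. All 1135 values above 0 (100%) came out as whole reads, within 0.01 read, once divided by their library's step. Reads were not taken as molecules, since use of molecular identifiers is not stated in the labels. Where a miRNA has 0 reads, 3 reads is taken as the one-sided limit, unlike the two-sided intervals of the libraries; this is 6.50 RPM in the shallowest library and 1.37 RPM in the deepest.

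miR-9-1 and miR-9-2 were summed in the whole table. In R 4.3.3, limma 3.58.1 fitted log2(RPM + 1) by group alone, with its variance trend on mean level, as the main test for miRNAs past edgeR's filterByExpr, and Benjamini-Hochberg adjustment over all of them. Fold changes are LO over SO and understate changes of low miRNAs. Shares and ratios were compared by exact two-sided permutation. Alternatives covered scalings (TMM, DESeq2 size factors, listed reads), edgeR 4.0.16 and DESeq2 1.42.0 on recovered reads, pseudocounts, filters, a block for the replicate number and the loss of each library in turn.

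The members and lists were chosen with earlier results of these data known. Besides the members, most miRNAs named were those sharing a seed, the rank neighbours, the 4 closest courses, the tested or undetected neural names and markers of other cells. Outside this rule, miR-124a (2 reads), miR-218 (17 reads) and miR-218-5p (43 reads) were picked though detected and untested. Values of other such neural names, among them miR-129a with 27 reads, are not given. miR-152, miR-184, miR-210, miR-374a-3p, miR-489 and, as a call, let-7c were named after their values were seen. The split of reads between the 22-base name and the others was added after the data were seen.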

Additional observations from a re-analysis of the deposited data

How the results depend on the processing

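miR-7 kept a negative log2 fold change in all 17 alternatives, from -0.95 to -0.33, with FDRs from 0.115 to 0.992, and summed miR-9 in all 18, from -0.89 to -0.28, with FDRs from 0.159 to 0.992. Both extremes came from the loss of LO replicate 2, the shallowest library, with TMM at one end and the deposited scaling at the other. miR-9-1 and miR-9-2 stayed negative in all 15 alternatives each, from -1.02 to -0.38 and from -0.57 to -0.08. The difference in the log2 ratio of miR-7 to miR-9 ran from -0.25 to 0.059 when a library was left out, turning without LO replicate 1. The shares of miR-7 and miR-9 and both name splits kept their sign in every alternative run for them.

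The number of miRNAs called, 0 in the main test, was 2 with edgeR's quasi-likelihood test and ran from 0 to 22 when a library was left out. The 22, of 110 tested, came without LO replicate 2, all higher in LO, beside a median log2 fold change of 0.62. TMM without that library (added after the data were seen) gave 1. The cause was not tested. Among the neural names, miR-125b turned to -0.24 with TMM, -0.26 with DESeq2 size factors, -0.22 in edgeR, -0.27 in DESeq2 and -0.24 in edgeR with the replicate block, and ran from -0.14 to 0.31 when a library was left out (-0.32 with TMM and without LO replicate 2). miR-138 turned to -0.0098 with DESeq2 size factors and -0.35 with TMM without LO replicate 2, while on the deposited scaling it ran from 0.0090 to 0.51 when a library was left out. miR-181a was lowest, at -0.19, when LO replicate 1 was dropped. It was highest, at 1.496, when LO replicate 2 was dropped, and was then one of the 22 calls (limma FDR 0.0458).

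Deviations from the group mean had r of -0.34, -0.21 and 0.08 between same-numbered LO and SO libraries, over the tested miRNAs. Between differently numbered libraries r ran from -0.29 to 0.43. With 3 libraries centred within each group, these values cannot decide whether the numbers mark pairs. The main test did not take them as pairs. With the replicate block the limma FDR was 0.843 for both miR-7 and miR-9 and no miRNA was called. edgeR's quasi-likelihood test with that block called 0 in place of 2, with a smallest FDR of 0.339 and 9 unadjusted p under 0.05. Depth limits the miR-9 values: the sum rests on 7 to 39 reads in LO against 43 to 65 in SO, so that counting error alone spans 6.10 to 31.3 RPM in LO replicate 2.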
